A study of Rattus norvegicus with 6 samples.

Results

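The mitosis and kinetochore genes are a list of 43 genes whose products build the kinetochore, run the spindle checkpoint, drive entry into and exit from mitosis, move the spindle or split the cell. Members were found on the array by matching each probe's accession to rat RefSeq symbols, old or current. Of the 43, 33 were named on the array, among 15284 genes named in all. The 10 without a named probe were Spc24, Bub1b, Cenpe, Melk, Kif4a, Ect2, Anln, Top2a, Ncapg and Ncaph. No measured value entered the choice rule, but the list was drawn up with earlier results of these arrays known.

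RNA from the livers of 6 male rats of the outbred Sprague-Dawley stock, bought at 5 weeks of age, was measured on 1-colour arrays. In one group, 3 rats received vehicle, and in the other, 3 were dosed with 1000 mg/kg/day of tert-butyl alcohol (tBA), an industrial solvent. The labels disagree on the vehicle, which is purified water in the sample labels and corn oil in the treatment protocol. They also disagree on the length of dosing, which is 28 days in the series text and 9 weeks in the protocol. All 6 livers carried the hepatocyte markers, with 10 of 10 well above background on every array. All 3 vehicle arrays shared slide 1 with tBA replicate 1, while the remaining tBA arrays, replicates 2 and 3, were on slide 2. For the slide 2 arrays, slide and treatment cannot be told apart within the slide.

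In dividing cells, Cdk1 bound to cyclin B starts mitosis, and kinetochores assembled on centromeres tie the chromosomes to spindle microtubules. The spindle checkpoint holds the anaphase promoting complex inactive until every kinetochore is attached, after which cyclins and securin are degraded and the cell divides. Most hepatocytes of an adult liver rest outside the cell cycle, whereas the liver of a young, growing rat still holds dividing cells. In RNA from whole liver, fewer dividing cells and less RNA per cell cannot be told apart.

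Many genes of this kind share promoter elements, the CCAAT box and the cell cycle homology region, through which late cell cycle transcription is timed. Promoters are shown here because most members lay on the same side of vehicle. Each sequence is the 250 bases before the annotated start in RefSeq's GRCr8 assembly, read 5′ to 3′ on the gene's strand. Capitals mark a CCAAT box or, as the core of the homology region, the motif TTTGAA or its variant TTCGAA, each searched on both strands. Nuf2 (chr13:84255599-84255848, minus strand), Aurka (chr3:181560770-181561019, minus strand) and Cdca3 (chr4:159320953-159321202, plus strand) are the 3 members with the smallest p among those the promoter table held. Prc1 (chr1:143659231-143659480, plus strand) and Cdk1 (chr20:19265043-19265292, plus strand) were added after their sequences were seen, as examples that hold both elements.
Nuf2: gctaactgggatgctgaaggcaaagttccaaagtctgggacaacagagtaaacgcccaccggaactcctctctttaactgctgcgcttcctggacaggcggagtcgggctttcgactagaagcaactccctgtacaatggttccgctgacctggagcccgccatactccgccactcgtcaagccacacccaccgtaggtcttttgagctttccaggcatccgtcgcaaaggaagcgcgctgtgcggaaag
Aurka: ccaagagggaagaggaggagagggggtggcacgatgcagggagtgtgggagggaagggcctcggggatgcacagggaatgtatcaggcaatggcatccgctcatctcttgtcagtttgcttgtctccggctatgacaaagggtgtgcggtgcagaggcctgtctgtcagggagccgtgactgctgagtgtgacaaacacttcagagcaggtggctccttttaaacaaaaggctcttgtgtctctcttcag
Cdca3: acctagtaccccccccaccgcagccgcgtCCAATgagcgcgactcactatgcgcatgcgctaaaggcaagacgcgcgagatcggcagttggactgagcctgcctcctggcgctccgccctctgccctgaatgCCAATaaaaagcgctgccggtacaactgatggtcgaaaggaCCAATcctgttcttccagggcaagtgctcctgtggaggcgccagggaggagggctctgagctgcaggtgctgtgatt
Prc1: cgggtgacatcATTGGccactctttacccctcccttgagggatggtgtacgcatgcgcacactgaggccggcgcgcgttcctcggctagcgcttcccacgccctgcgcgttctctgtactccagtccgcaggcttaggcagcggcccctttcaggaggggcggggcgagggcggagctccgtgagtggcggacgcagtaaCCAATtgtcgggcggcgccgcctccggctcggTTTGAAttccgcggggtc
Cdk1: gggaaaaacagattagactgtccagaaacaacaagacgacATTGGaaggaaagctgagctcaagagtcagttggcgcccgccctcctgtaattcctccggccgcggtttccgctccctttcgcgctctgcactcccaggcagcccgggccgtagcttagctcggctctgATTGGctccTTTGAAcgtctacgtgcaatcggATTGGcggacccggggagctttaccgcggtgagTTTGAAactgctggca

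The upstream 250 bases of Nuf2 and Aurka held neither element, whereas Cdca3 held 3 CCAAT boxes, Prc1 held 2 with 1 TTTGAA, and Cdk1 held 3 with 2. The homology motif of Nuf2 lay just past its start. Counts over the set used a window that runs on to 50 bases past the start, with 1 window per gene. The table held 37 of the 43 members. A TTTGAA or TTCGAA was present in 25 of these 37 windows (67.6%), against 19.5% of 27457 windows of all genes. A CCAAT box was present in 27 (73.0%), against 37.7% of all. At least 2 CCAAT boxes stood in 21 (56.8%), against 11.5%, and both elements in 20 (54.1%), against 7.83%. Among the windows of genes tested on the array, 13 of 22 members held both elements (59.1%), against 5.98% of 9103 genes. These are matches of letters, not binding sites, and they say nothing of which factor acts.

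Values below are log2 of the background-subtracted signal minus the array's 75th percentile, so 0 is the signal of a fairly bright probe, and differences are tBA minus vehicle. Each gene has the value of its brightest probe, and levels are compared between arrays, never between genes. A gene was tested when all 3 arrays of either group showed its probe well above background. That left 27 of the 33 named members and 11093 genes in all. Limma was fitted to 37647 probes, and p-values were adjusted by Benjamini-Hochberg over all of them. At an adjusted p under 0.05, 42 probes (0.112%) passed, 16 of them lower with tBA (0.0425%). Among the members 1 gene passed, Nuf2, which was lower with tBA, against 0.0451% of all genes tested in either direction and 0.0361% lower.

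Of the 27 tested members, 26 had a lower mean with tBA (49.6% of all genes tested) and 1 a higher mean. At an unadjusted limma p under 0.05, 22 were lower (7.46% of all genes tested) and 0 higher (7.59%). All 3 tBA arrays lay below all 3 vehicle arrays for 22 (11.4% of all genes tested). Their median difference was -0.89 against 0.0024 over all genes tested. Since not all of their tBA arrays were above background, Nuf2, Ttk, Cenpa and Tpx2 entered through the vehicle group, which favours genes lower with tBA. The counts that follow leave these members out. They use the 23 members above background on all 6 arrays, beside the 10692 genes that were so. Of the 23, 22 had a lower mean with tBA (49.1% of all genes), and 16 lay more than 0.5 lower (4.69%). All 3 tBA arrays lay below all 3 vehicle arrays for 18 of them (11.1%), and 18 had an unadjusted limma p under 0.05 in that direction (7.01%). Their median difference was -0.62, against 0.0055 over all genes. None of the 23 passed the adjusted threshold, as did 0.0281% of all genes, and their adjusted p ran from 0.0984 to 0.916.

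**Figure D1:**
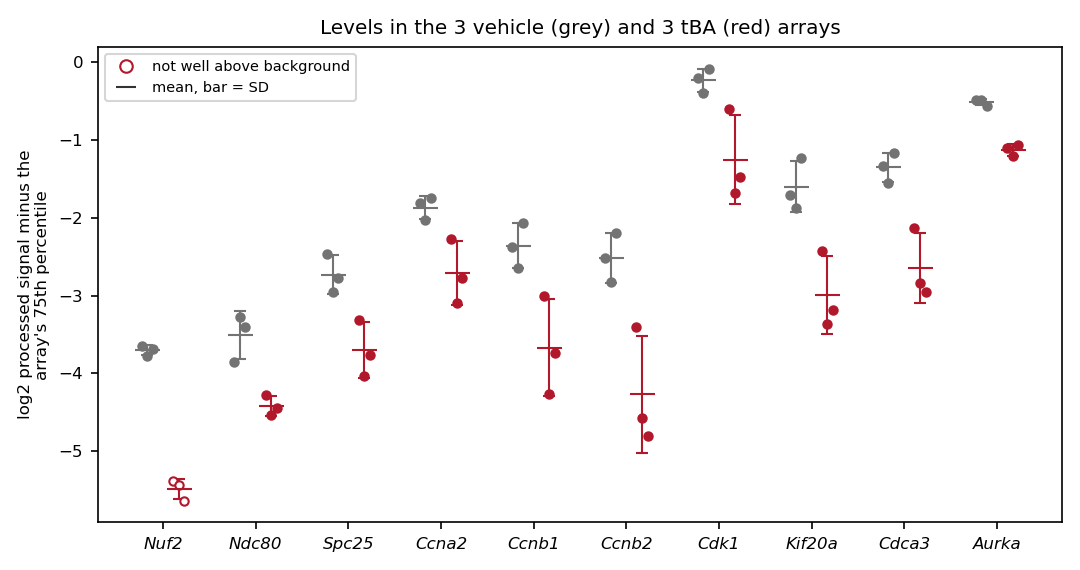
Levels of 10 members on each array, as log2 processed signal minus the array's 75th percentile (vertical axis), with vehicle in grey and tBA in red; long ticks are means and bars SD, n = 3 arrays. Groups can be compared within a gene but not between genes. All 10 are among the 22 of 27 tested members whose 3 tBA points lie below the 3 vehicle points (11.4% of all genes tested). Birc5, Cdkn3, Pttg1, Kif11 and Kif23, whose groups overlap, are not shown. The open circles of Nuf2 were not well above background.

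The Ndc80 complex is the rod of Ndc80, Nuf2, Spc24 and Spc25 that grips microtubules at the kinetochore. Nuf2 read -3.65, -3.78 and -3.69 on the vehicle arrays and -5.39, -5.44 and -5.64 on the tBA arrays. It was well above background on all 3 vehicle arrays and on no tBA array, so its level with tBA has only an upper bound. The fit, which takes those dim tBA signals as they stand, gave a log2 difference of -1.79 (adjusted p = 0.00624, limma). Against each array's own background limit, Nuf2 was at least 2.91-fold lower, a bound that holds for those limits only and was not tested. With one floor for all arrays, set at the highest of those limits, its log2 difference was smaller, -1.43 (adjusted p = 0.00277, limma). With normexp background correction its difference was -0.43 (adjusted p = 0.105, limma), and without tBA replicate 2 it was -1.81 (adjusted p = 0.0626, limma). Within slide 1, which holds 1 tBA rat, it was -1.68. A fixed block for slide gave the same -1.68, since slide 2 held no vehicle array.

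Ndc80, which pairs with Nuf2 in the microtubule-binding part of the rod, read -3.85, -3.27 and -3.4 with vehicle and -4.28, -4.54 and -4.45 with tBA. The groups did not overlap, and the difference of -0.92 (SE 0.17) did not pass (adjusted p = 0.165, limma). Spc25, of the part that faces the centromere, read -2.46, -2.96 and -2.78 with vehicle and -3.32, -4.03 and -3.76 with tBA. Its difference was -0.97 (SE 0.22, adjusted p = 0.194, limma), again without overlap. A dimmer Spc25 probe differed by -1.61 (SE 0.71), with a wider spread. For the 3 measured subunits, all 3 tBA arrays thus lay below all 3 vehicle arrays (11.4% of all genes tested), and Nuf2 alone passed. Nuf2 entered through the vehicle group, which favours genes lower with tBA. Without Nuf2 there remained the 2 subunits above background on every array, Ndc80 and Spc25. Of all genes above background on every array, 11.1% were without overlap in this direction.

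Of the spindle checkpoint, Mad2l1, the protein that keeps Cdc20 inactive at unattached kinetochores, varied little within either group. It read -2.03, -2.0 and -1.92 with vehicle and -2.36, -2.44 and -2.37 with tBA, a difference of -0.40 (SE 0.083, adjusted p = 0.181, limma). Bub1, a kinase docked at kinetochores, differed by -0.53 and its other tested probe by -0.41. Ttk, the kinase that starts checkpoint signalling, differed by -1.20, and was above background on 2 of 3 tBA arrays. A second Ttk probe, above background on all 6 arrays, differed by -0.59. None of the 3 checkpoint genes passed, with adjusted p from 0.181 to 0.266 (limma).

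Cenpa, the histone H3 variant that marks centromeres, read -3.75, -3.61 and -3.54 with vehicle and -4.32, -4.55 and -5.48 with tBA, where 2 of 3 arrays were above background. Its difference was -1.15 (SE 0.30, adjusted p = 0.217, limma). Cenpf, a kinetochore protein of late cell cycle, was not tested, with 1 of its 4 probes above background on 1 vehicle array. In the chromosomal passenger complex, which corrects faulty attachments, Aurkb and Cdca8 were above background on no array. Birc5 (survivin), the one member of this complex tested, read -1.56, -1.03 and -1.08 with vehicle and -1.52, -1.69 and -1.48 with tBA. Its groups overlapped, with a difference of -0.33 (SE 0.16, adjusted p = 0.366, limma). Incenp, the scaffold of the complex and not a member here, differed by -0.45 without overlap (SE 0.24, adjusted p = 0.402, limma).

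Aurka, a kinase of the spindle poles, had the smallest p after Nuf2 and tight replicates. It read -0.49, -0.48 and -0.56 with vehicle and -1.1, -1.21 and -1.06 with tBA, a difference of -0.62 (SE 0.086, adjusted p = 0.0984, limma). A second Aurka probe gave -0.65 (SE 0.081, adjusted p = 0.0772, limma), so the probes agreed within their errors and neither passed. Plk1, a kinase needed from mitotic entry to cell division, differed by -0.52 on one probe and -0.87 on the other. Nek2, a kinase that parts the centrosomes, was not tested. Its brightest probe read -0.82 on vehicle replicate 3 and between -6.96 and -5.05 on the other 5 arrays, and is named because of that single value.

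The B cyclins, which bind Cdk1 at mitotic entry, had differences wider than the members' median. Ccnb2 (cyclin B2) read -2.52, -2.83 and -2.19 with vehicle and -3.41, -4.58 and -4.81 with tBA. Its difference of -1.75 (SE 0.39, adjusted p = 0.193, limma) did not pass. The slide 2 arrays were lower than tBA replicate 1, which itself lay below all 3 vehicle arrays. Ccnb1 (cyclin B1) differed by -1.31, Cdk1, their kinase, by -1.02, and Ccna2 (cyclin A2, of S phase and early mitosis) by -0.85, each with groups that did not overlap. All 3 tested Ccna2 probes were lower with tBA, by -0.85, -1.14 and -1.10. The exception was Cdkn3, a phosphatase that acts on Cdks. It read -3.74, -3.89 and -4.5 with vehicle and -3.11, -3.87 and -4.06 with tBA, a difference of 0.36 (SE 0.31, adjusted p = 0.576, limma) with overlapping groups.

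Of the genes for anaphase and mitotic exit, Ube2c, the ubiquitin-conjugating enzyme that serves the anaphase promoting complex, read -2.85, -2.57 and -2.6 with vehicle. With tBA it read -3.2, -3.83 and -3.71, below every vehicle array, and the difference of -0.91 (SE 0.19) did not pass (adjusted p = 0.181, limma). Cdc20, the activator that the checkpoint holds back, differed by -0.43 without overlap. Pttg1 (securin), which guards sister chromatid cohesion, differed by -0.10 with overlap, and its sign turned without vehicle replicate 2 (0.028) or without tBA replicate 2 (0.025).

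Among kinesins and spindle proteins, Prc1, which bundles microtubules at the midzone, read -2.69, -2.65 and -2.58 with vehicle and -3.2, -3.84 and -3.81 with tBA. Its difference was -0.98 (SE 0.19, adjusted p = 0.167, limma), and without tBA replicate 1 it was -1.19 and passed (adjusted p = 0.0440, limma). Kif20a, a kinesin of late division, read -1.7, -1.87 and -1.23 with vehicle and -2.42, -3.36 and -3.18 with tBA. It differed by -1.39 (SE 0.29, adjusted p = 0.185, limma) without overlap. Tpx2, which activates Aurka on the spindle, differed by -1.0, and Nusap1, a microtubule-binding spindle protein, by -0.60. Kif11, the motor that pushes spindle poles apart, differed by -0.20, and Kif23, a motor of the central spindle, by -0.043. Both overlapped with vehicle, and Kif23 turned to 0.010 with normexp, 0.021 with quantile normalization, 0.031 with each array's median and 0.12 without vehicle replicate 3. Kif2c, which takes microtubules apart, was not tested.

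Racgap1, the partner of Kif23 in the complex that directs cleavage, read -3.79, -3.87 and -3.58 with vehicle and -4.39, -4.83 and -4.67 with tBA. Its difference of -0.89 (SE 0.15, adjusted p = 0.14, limma) did not pass, and its contrast with the -0.043 of Kif23 was not tested. A second Racgap1 probe differed by -1.29. Of the 4 condensin and topoisomerase members, Smc2, Ncapg, Ncaph and Top2a, which compact and untangle chromosomes, Smc2 alone was named on the array, and it was above background on no array.

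Foxm1, a transcription factor that acts on genes of the G2 and M phases, read -1.64, -1.47 and -1.51 with vehicle and -1.96, -2.14 and -2.13 with tBA. The difference was -0.54 (SE 0.098, adjusted p = 0.159, limma), and the groups did not overlap. Cdca3, which promotes mitotic entry, read -1.33, -1.55 and -1.17 with vehicle and -2.13, -2.84 and -2.95 with tBA. Its difference was larger, -1.29, with a larger error (SE 0.24, adjusted p = 0.162, limma).

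**Figure D2:**
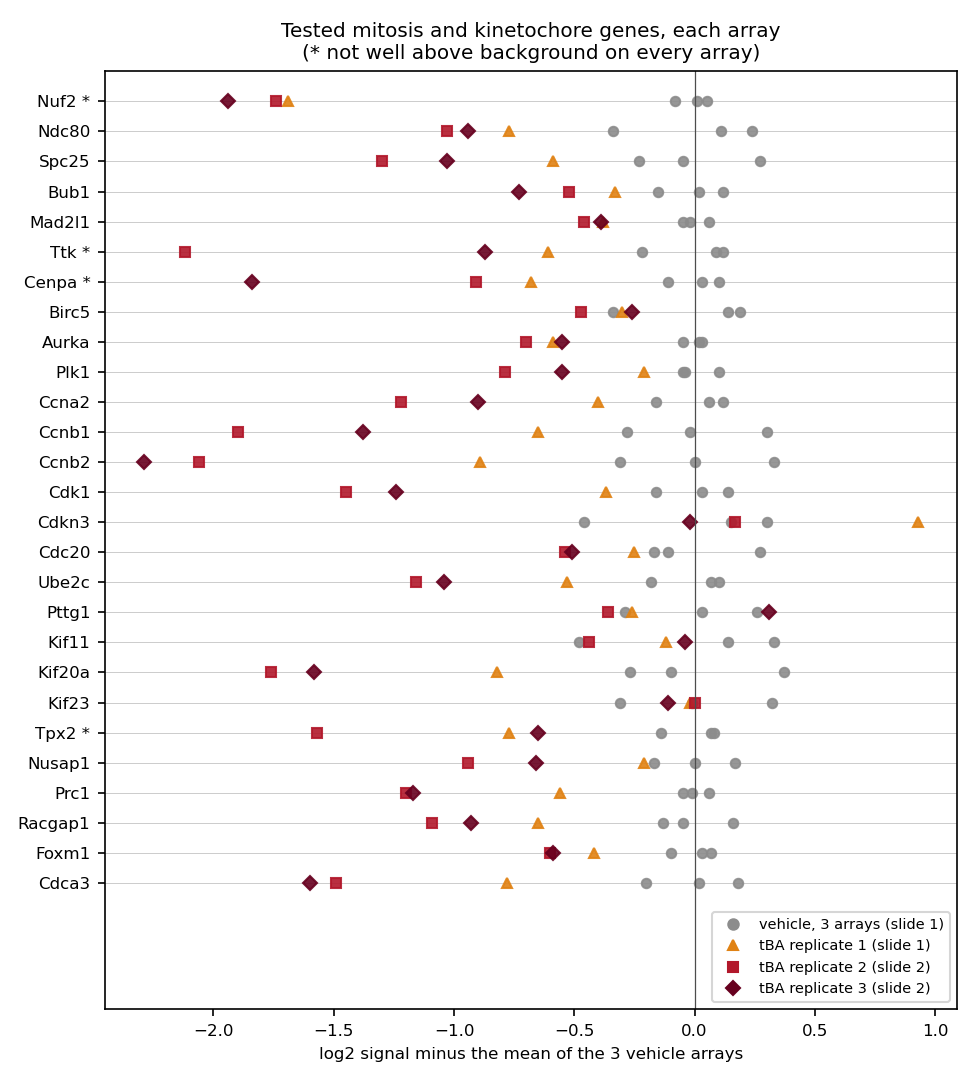
Log2 signal of each tested member on each array minus the gene's mean over the 3 vehicle arrays (horizontal axis), 1 row per gene in the order of roles; grey circles are vehicle, the triangle is tBA replicate 1 on slide 1, and the square and diamond are tBA replicates 2 and 3 on slide 2. Most tBA symbols lie left of the grey circles, except for Birc5, Cdkn3, Pttg1, Kif11 and Kif23, and the triangle is the rightmost tBA symbol in 21 of 27 rows.

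The shift differed in size between the tBA rats. Over the 23 members above background on every array, the median deviation from the vehicle mean was -0.41 on tBA replicate 1, -0.94 on replicate 2 and -0.73 on replicate 3. The vehicle arrays stood at -0.018, -0.037 and 0.1, and the median over all genes stayed between -0.0066 and 0.02 on every array. The summed linear signal of the 23, relative to the 75th percentile, was 7.48, 7.51 and 7.95 with vehicle and 5.8, 4.35 and 5.18 with tBA. Among the 23, tBA replicate 1 was the highest tBA array for 18 and replicate 2 the lowest for 18.

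Slide moved with these values. On slide 1, tBA replicate 1 lay below all 3 vehicle arrays for 18 of the 23 members, against 25.5% of all genes, and that comparison has 1 tBA rat. Both slide 2 arrays lay below tBA replicate 1 for 18 of the 23, against 37.2% of all genes. Whether that second step belongs to the slide or to the rats cannot be told apart. With slide as a fixed block the median over the 23 members was -0.41. Slide 2 held no vehicle array, so this estimate rests on tBA replicate 1 alone and repeats the comparison within slide 1.

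Other genes of cell division were set beside the members. A further list of 88 mitosis genes had 37 members above background on all 6 arrays, of which 31 had a lower mean with tBA (49.1% of all genes) and 17 had tBA arrays all below vehicle (11.1%). Their median was -0.30, and 13 were lower (7.01% of all genes) and 1 higher at an unadjusted p under 0.05. Over all 42 tested genes of this list the lower count of 14 became 8 with each array's median. It was 7 without tBA replicate 2 and 9 without tBA replicate 3. With slide as a fixed block, whose estimate rests on 1 tBA rat, it was lower than under any of these settings. The share of all genes under those settings was not counted. On slide 1, with 1 tBA rat, the median over the 42 was -0.25. Kif22, a chromosome-arm kinesin, read -1.48, -1.51 and -1.39 with vehicle and -2.15, -2.94 and -2.51 with tBA, a difference of -1.08 (SE 0.20, adjusted p = 0.164, limma). Spag5, a spindle protein, differed by -0.91, Ckap2 by -1.17 and Dlgap5, which stabilizes spindle microtubules, by -0.75. In the other direction, Iqgap3, a scaffold protein named here after its value was seen, differed by 0.33 (adjusted p = 0.263, limma). Mki67, the usual marker of cycling cells, had no named probe.

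A list of 49 genes of DNA replication and S phase had 31 members above background on all 6 arrays, of which 28 had a lower mean with tBA (49.1% of all genes). Their median was -0.40, with 16 lower (7.01% of all genes) and 0 higher at an unadjusted p under 0.05. Over all 33 tested genes of this list the lower count of 17 became 10 without vehicle replicate 1, where the share of all genes was not counted. With slide as a fixed block, whose estimate rests on 1 tBA rat, that count was lower still. On tBA replicate 1, the tBA array of slide 1, the median deviation of the 31 from the vehicle mean was -0.36. Ccne1 (cyclin E1), which drives entry into S phase, read -1.72, -1.64 and -1.38 with vehicle and -2.61, -2.65 and -3.11 with tBA. Its difference was -1.21 (SE 0.17, adjusted p = 0.0984, limma), and under normexp, where it was -0.82, it passed (adjusted p = 0.0485, limma). Mcm3, a subunit of the replicative helicase, differed by -0.54, Cdc45, its partner, by -0.43, and Rfc3, of the clamp loader, by -0.55. None of the tested genes of either list passed the adjusted threshold with the standard settings.

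The subunits of the anaphase promoting complex, whose activity rather than amount is switched in mitosis, were spread around 0. Of 14 measured, 8 had a lower mean with tBA (49.1% of all genes) and 6 a higher mean, with a median of -0.068. None had an unadjusted p under 0.05, where 7.01% of all genes were lower. For 3 of the 14 the tBA arrays lay all below vehicle (11.1% of all genes). The 4 with the smallest p, Anapc15, Anapc2, Anapc11 and Anapc7, differed by -0.20, -0.18, -0.13 and -0.19. Of 26 measured genes that restrain the cell cycle or act around G1, 12 had a lower and 14 a higher mean, with a median of 0.0088. Btg1, an antiproliferative gene, differed by 0.62, Ccnd2 (cyclin D2) by -0.40 and Cdkn2b, an inhibitor of Cdk4, by -0.40. Gadd45g, a growth arrest gene, read 5.37, 4.2 and 4.83 with vehicle and 1.68, 1.72 and 4.15 with tBA, a difference of -2.29 (SE 0.71, adjusted p = 0.256, limma). Ccnd1 (cyclin D1) differed by -0.35, Cdkn1a (p21) by 0.088 and Cdkn1b (p27) by 0.10. The signs of these last 3 turned under other settings, to 0.020 for Ccnd1 without vehicle replicate 3, -0.020 for Cdkn1a with quantile normalization and -0.18 for Cdkn1b without vehicle replicate 1.

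**Figure D3:**
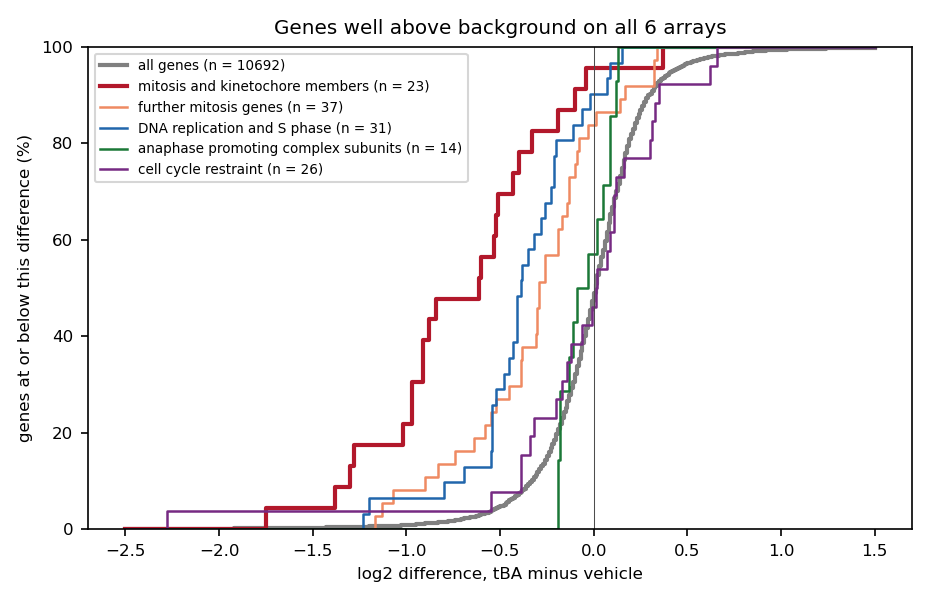
Share of genes (vertical axis, percent) at or below each log2 difference of tBA minus vehicle (horizontal axis), for genes well above background on all 6 arrays; each line is 1 gene list and the grey line is all 10692 genes. The line of the 23 members lies left of the others over most of its course, with its median at -0.62, those of the further mitosis and replication lists lie between, and those of the anaphase promoting complex and cell cycle restraint lists cross the midpoint near all genes.

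Markers of other cells were read beside the members. Hepatocyte markers had a median difference of 0.05 and a summed signal of 3780 to 4180 with vehicle and 4050 to 4200 with tBA. Of 12 T and NK cell markers 10 were measured, 7 with a lower mean, with a median of -0.29 and a summed signal of 4.15 to 6.29 with vehicle and 3.52 to 5.07 with tBA. Cd8b, of the cytotoxic T cell coreceptor, read -2.01, -1.72 and -2.27 with vehicle and -3.21, -3.84 and -2.95 with tBA. Its difference of -1.34 (SE 0.26, adjusted p = 0.174, limma) was the largest of the 10 and is given for that reason. Gzma, Gzmb and Klrb1a had higher means, by 0.20, 0.036 and 0.081. Cd3d and Cd3g differed by -0.18 and -0.43 with overlapping groups. Cd8a, Cd247 and Nkg7 differed by -0.64, -0.34 and -0.24, also with overlap, and Cd4 by -0.45 without overlap. Cd3e, a defining T cell gene, was above background on 1 vehicle array and no tBA array, and Cd5 on none. Of 8 B cell markers 5 were measured, 4 with a lower mean, with a median of -0.27 and a summed signal of 2.31 to 2.42 against 1.68 to 2.17. The part of lymphocytes in the members' values was not tested. Of the 10 macrophage markers 7 had a lower mean, with a median of -0.057. The 9 stellate cell markers all had a lower mean, with a median of -0.13, a summed signal of 37.5 to 49.2 with vehicle and 30.4 to 42.1 with tBA, and no unadjusted p under 0.05. Their part in the members' values was not tested. Medians were above 0 for the 6 endothelial markers (0.17), the 5 of red blood cell precursors (0.17) and the 5 of the bile duct (0.14). Of the 6 neutrophil markers 2 were measured, with a median of 0.36.

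**Figure D4:**
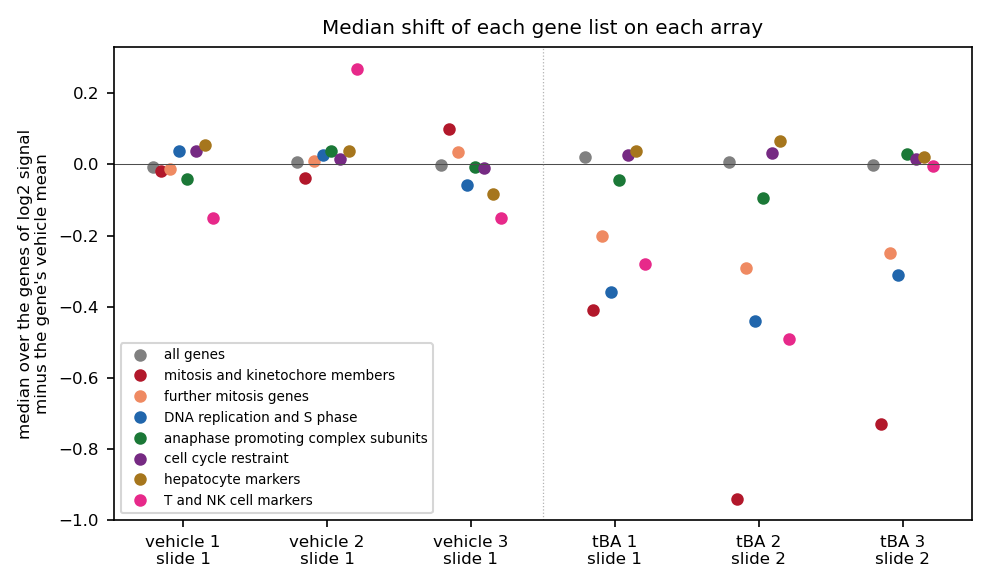
Median over each gene list of the log2 signal minus the gene's vehicle mean (vertical axis), for the 3 vehicle and 3 tBA arrays (horizontal axis), over genes well above background on all 6 arrays. The members reach -0.41, -0.94 and -0.73 on the tBA arrays, while all genes and hepatocyte markers stay within 0.1 of 0.

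Genes outside these lists were ranked by the Pearson correlation of their 6 values with the members' mean, as a description over 6 arrays that fall into 2 groups. The most alike were taken from 10499 genes, after any symbols beginning with LOC, RGD or Olr, which that number includes, were set aside. They were Gmppa (r = 0.9983), which acts in GDP-mannose metabolism, Atp6v0c (0.9942), a proton pump subunit, the chemokine Ccl9 (0.9942), Abracl (0.9940) and Clec2d2l1 (0.9928). Gmppa read -0.57, -0.58 and -0.51 with vehicle and -0.82, -1.11 and -1.06 with tBA. Its difference of -0.44 did not pass (adjusted p = 0.207, limma).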

How the data were processed

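Liver RNA of 6 rats was labelled with Cy3 and hybridised to 1-colour Agilent arrays, per the labels' protocols. To obtain spot intensity, the authors ran Agilent Feature Extraction, version 10.7.1.1 per the file headers; the submitters' processing notes give 10.7. Local background is already subtracted. The deposited series table holds a linear ratio of that signal to 1 divisor per array, 570.0 to 639.5, with column medians of 0.0949 to 0.102. Its values follow the scanner signal upward, without centring per gene.

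The processed signal of 61657 probes, with 1319 control spots left out and 3 to 16 outlier spots per array missing, was taken to log2 minus the array's 75th percentile. Between 61.5% and 66.9% of probes were well above background, and none was saturated. The 6 arrays limit the precision. Probes that every array of either group showed well above background were tested with limma 3.58.1 (lmFit, eBayes) in R 4.3.3. A bound for a gene below background in 1 group sets the bright group's mean against a limit averaged over the dim group's arrays: the array's lowest signal called well above background or, if higher, the probe's signal. With 3 rats a group, the smallest exact permutation p is 0.1. The fit was tested on simulated data.

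Accessions named 27460 probes through RefSeq genes of GRCr8. The array annotation is on rn4, so no array coordinates were used.

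The members and lists were chosen with earlier results of these data known. Values per array are given for members past the threshold, the Ndc80 subunits, the member of smallest p in each role, the 10 members of smallest p and members above 0. Up to 4 genes per further list are named by smallest p, with Mki67, Ccnd1, Ccne1, Cdkn1a and Cdkn1b. Alternatives were normexp (offset 50, on the median signal), other scalings, the deposited table, other filters and a floor, an intensity trend, slide and replicate blocks, slide 1 alone, each array left out and the mean of a gene's probes. Python 3.11.15, pandas 2.3.3, numpy 2.4.6 and matplotlib 3.10.9 served for tables and plots.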

Additional observations from a re-analysis of the deposited data

How the results depend on the processing

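The count of 18 members above background on all arrays whose groups did not overlap was 16 with normexp and 18 to 20 under the other alternatives run. A setting that uses fewer of the same arrays, such as slide 1 alone, can only keep or raise this count. For counts of groups without overlap or at an unadjusted p, the share over all genes was taken with the standard settings alone. The 42 probes past the threshold became 64 with one floor, 18 without a filter, 0 with an all-array filter (every array above background), 68 with an intensity trend, 20 with slide as a fixed block, 0 on slide 1 alone, 6 with the replicate block and 6 to 45 with an array left out, with 22 without vehicle replicate 1, 25 without vehicle replicate 3, 6 without tBA replicate 2 and 14 without tBA replicate 3. The member calls went from 1 to 0 with normexp, the all-array filter (which leaves Nuf2 untested), the fixed slide block, slide 1 alone and the replicate block, and ran from 0 to 2 with an array left out (0 without tBA replicate 2, 2 without tBA replicate 1, where Prc1 passed too). Members lower at an unadjusted p under 0.05 went from 22 to 11 with the fixed block and 14 on slide 1, and stayed at 19 to 22 with an array left out. Their median of -0.89 became -0.33 with normexp, -0.62 with the all-array filter (23 genes), and -0.53 with the fixed block and on slide 1, and ran from -1.01 to -0.71 with an array left out. For the 23 above background on all arrays, 18 lower at an unadjusted p under 0.05 became 10 with the fixed block and 10 on slide 1 (16 to 19 with an array left out), and the median of -0.62 became -0.35 with normexp and -0.41 with the fixed block and on slide 1 (-0.80 to -0.57 with an array left out).

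Deviations of same-numbered arrays from their group means correlated at -0.0635, -0.0629 and 0.0159 over 35643 probes, and those of differently numbered arrays at -0.0631 to 0.124. Same-numbered rats thus showed no shared shift, but whether they were paired cannot be told from 3 arrays a group. With the replicate block Nuf2 stood at -1.79 (adjusted p = 0.109, limma).

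The median of the 42 tested further mitosis genes, -0.31, became -0.13 with normexp, -0.23 with each array's median, -0.25 with the fixed slide block and on slide 1, and -0.34 to -0.27 with an array left out. That of the 33 tested replication genes, -0.40, became -0.31 with normexp, where 1 gene passed, -0.32 with each array's median, and -0.45 to -0.33 with an array left out. The anaphase promoting complex median, -0.068, turned to 0.0057 with each array's median and ran from -0.10 to 0.0046. The restraint median, 0.0088, was -0.028 with quantile normalization, 0.083 with each array's median, -0.014 with the percentile over detected probes, 0.028 with the fixed block and on slide 1, -0.011 with the mean of a gene's probes, and -0.029 to 0.041 with an array left out; it has no stable sign. The anaphase promoting complex count of 0 lower at an unadjusted p under 0.05 became 1 with normexp, the percentile over detected probes, the intensity trend or without tBA replicate 2. No gene of these 4 lists passed with an array left out (0 calls each). Single genes were followed through 21 alternatives, 962 values for 46 genes: 946 kept direction and call, 9 turned sign (values of Pttg1 0.025 and 0.028, Kif23 0.010, 0.021, 0.031 and, over arrays left out, -0.20 to 0.12, Ccnd1 -0.67 to 0.020, Cdkn1a -0.020 and Cdkn1b -0.18 to 0.28), 5 lost a call and 2 gained one. Of these genes only Nuf2 had a call with the standard settings, so the others had none to lose. Nuf2 kept its call in 15 alternatives, and the 5 lost calls were all its own. The cause of these changes was not tested. Members near background, among them Nuf2, are measured poorly by signal over background.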
